A study of Mus musculus with 30 samples.

Results

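The respiratory chain genes of the nucleus were followed in 30 mouse hearts after pressure overload or sham surgery. Members were the protein-coding genes of the count table whose symbol begins with Nduf, Uqcr, Atp5 or Cox followed by a digit from 4 to 8, or is Sdha, Sdhb, Sdhc or Sdhd. Symbols that end in -ps were left out. This rule, which uses no measured value, took 94 of 55487 gene entries: 44 of complex I, 4 of complex II, 8 of complex III, 20 of complex IV and 18 of the ATP synthase (complex V). The 44 of complex I hold 7 core subunits, 29 supernumerary subunits and 8 assembly factors. Of the 94, 91 passed the filter on low counts in each cohort. Cox7b2, Cox8c and the second of 2 entries named Atp5o were not tested. Atpif1, which encodes the inhibitor of the ATP synthase, falls outside the rule because of its symbol.

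The hearts were taken 8 weeks after surgery, which was either a sham operation or transverse aortic constriction (TAC), in which a clip narrows the aorta and raises the load on the left ventricle. In the floxed cohort, FF_sham and FF_TAC are CPT1a floxed controls, and KO_sham and KO_TAC are labelled as cardiac specific CPT1a knockouts, with 4 libraries in each of the 4 groups. In the AAV9 cohort all mice are C57Bl/6. PBS_sham and PBS_TAC received saline and have 3 libraries each, while AAV_sham and AAV_TAC received AAV9.Cpt1a, in which the cTNT promoter of heart muscle drives Cpt1a, and have 4 each. The study asked what the rise of Cpt1a does under load. Its product is the outer membrane transferase through which long-chain fatty acids enter mitochondria. The labels give no age or sex, and do not name the Cre line or say which mouse had which of the 2 clip sizes. Titles of the KO_TAC samples name TAC and sham together, and the genotype and treatment labels were used.

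The respiratory chain passes electrons from NADH (complex I) and succinate (complex II) through coenzyme Q, complex III and cytochrome c to oxygen at complex IV, and complex V makes ATP from the proton gradient. Complex II is encoded wholly in the nucleus, while the other complexes also hold subunits encoded in mitochondrial DNA. Heart muscle is packed with mitochondria and expresses muscle forms of several complex IV subunits in place of the forms found in most other tissues. Loss of respiratory chain transcripts has been described in failing hearts.

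Library totals ran from 14839758 to 22070373 counts. Levels are given as CPM, the usual scale of counts set to a common library size, here with TMM factors, and as CPM per kb of the principal transcript where genes are set against each other. Cpt1a itself was 37.8 to 52.7 CPM in FF_sham, 20.3 to 46.3 in KO_sham, 16.2 to 48.9 in FF_TAC and 11.1 to 19.6 in KO_TAC. The library labelled KO_sham 2 (46.3 CPM) lay inside the FF_sham range, so comparisons with KO_sham rest on its label. The library labelled FF_TAC 3 (16.2 CPM) lay inside the KO_TAC range, so comparisons with FF_TAC rest on its label too. Among sham hearts of the AAV9 cohort, AAV_sham held 56.3 to 88.4 CPM of Cpt1a and PBS_sham 37.4 to 68.0, and under overload AAV_TAC held 44.8 to 62.7 and PBS_TAC 40.3 to 61.6. The ranges with and without the vector overlapped after either surgery, so the comparisons of this cohort rest on its labels. In neither cohort did a TAC group have a Cpt1a range above that of its sham group. The 3 marker genes of the chain were abundant in all 30 libraries, with at least 262 CPM of Sdha, 104 of Ndufs1 and 897 of Cox4i1. Libraries that stand apart touch the results. Summed haemoglobin transcripts were under 100 CPM in FF_TAC 2 and 3, KO_sham 2 and all 4 KO_TAC libraries, and at least 294 in the other 23. KO_TAC 1 held 8481 CPM of 4 summed atrial markers, against at most 3132 in the other 29. PBS_sham 3 held 25658 CPM of 8 summed cardiomyocyte markers, against 49909.5 to 77474 in the other 29 libraries. It also held 1812 CPM of 5 smooth muscle markers, against at most 366. In whole-heart RNA, fewer cells of a type and less RNA per cell cannot be told apart.

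In FF_sham hearts the catalytic core of the ATP synthase led the members on the CPM per kb scale. Atp5b, the catalytic beta subunit, stood at 2754 ± 150.2 CPM per kb (SD, n = 4), and its range did not overlap that of the next gene. Cox4i1, the main form of complex IV subunit 4, whose exons overlap Emc8 on the opposite strand, followed at 2141 ± 215. The neighbours of Cox4i1 in the order were Atp5a1, the alpha subunit (1737 ± 98.8), Atp5g3, which encodes the rotor ring subunit c (1669 ± 192), and the muscle form Cox6a2, which overlaps Itgad on the opposite strand (1393 ± 248). Atp5a1, Atp5g3 and Cox6a2 overlapped in range. Sdha stood at 523 ± 38.1, Ndufs1 at 225 ± 15.5 and Uqcrc2 at 429.6 ± 22.4 CPM per kb. At the other end of the tested genes were Cox6b2 (4.05 ± 0.813), an isoform known from testis, the complex I subunit Ndufb2 (10.1 ± 0.501), Cox4i2 (12.8 ± 2.90), Atp5s (13.5 ± 1.81) and several complex I assembly factors such as Ndufaf5 (14.5 ± 1.17). The place of Ndufb2 rests on an annotated principal transcript of 4371 bases, of which 315 are coding. Its exons also overlap Gm42420 on the same strand and Braf and Gm16272 on the opposite strand. Together the 94 genes made up 4.31 to 4.73% of the FF_sham counts.

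Few members were called, all of them in comparisons with KO_TAC. The quasi-likelihood test of edgeR, adjusted over all genes by the Benjamini-Hochberg method, called 5 of 91 members in KO_TAC against KO_sham, 3 higher and 2 lower, where 25.8% of all tested genes were called (14.3% higher and 11.5% lower). In KO_TAC against FF_TAC 4 of 91 were called, 1 higher and 3 lower, beside 14.3% of all genes (7.53% higher and 6.8% lower). Both comparisons use the same 4 KO_TAC libraries, so they are not independent. In the other 8 comparisons edgeR called 0 members. In both KO_TAC comparisons the members' share of calls lay below that of all genes. The count varied with the tool: DESeq2 called 10 and 7 members in the KO_TAC comparisons, and limma-voom with sample weights called 35 and 10. Of all genes DESeq2 called 30.9% and 19.7%, and limma-voom 53.4% and 38.5%.

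The nuclear genes that fell in overloaded knockout hearts were Sdha, Ndufs1 and, against FF_TAC, Uqcrc2. Sdha (ENSMUSG00000021577; GRCm38 chr13:74322254-74350280, minus strand) encodes the flavoprotein of complex II, which oxidises succinate. Its level was 1028, 889, 911 and 1063 CPM in KO_TAC 1 to 4, and 1338, 1542, 1349.8 and 1302 CPM in KO_sham 1 to 4. It was 1454, 1306, 1311 and 1374 CPM in FF_TAC and 1448, 1497, 1446 and 1679 CPM in FF_sham. The 4 KO_TAC hearts lay below all 12 other hearts of the cohort. Sdha fell by 29.7% in KO_TAC against KO_sham (log2 fold change −0.51, SE 0.09, adjusted p 0.00279, edgeR). Against FF_TAC it fell by 28.5% (log2 fold change −0.48, SE 0.09, adjusted p 0.00373, edgeR).

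Ndufs1 (ENSMUSG00000025968; chr1:63143596-63176833, minus strand) encodes the largest iron-sulfur subunit of the complex I core. Its exons overlap those of Eef1b2 and Ino80dos on the opposite strand, and the strand setting of the counting is not given in the sources used here, so its value is uncertain to that extent. KO_TAC held 435, 345, 357 and 442 CPM, KO_sham 535, 609.8, 531 and 495 CPM, FF_TAC 544, 553, 524 and 561 CPM and FF_sham 574, 594, 566 and 657 CPM, each in replicate order. All KO_TAC hearts were again below all other hearts of the cohort. The change was −0.46 against KO_sham (log2, SE 0.10, edgeR adjusted p 0.00691) and −0.47 against FF_TAC (SE 0.10, adjusted p 0.00800). Both Sdha and Ndufs1 were lower in KO_TAC 2 and 3 than in KO_TAC 1 and 4, while most other members were highest in KO_TAC 2.

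Uqcrc2 (ENSMUSG00000030884; chr7:120635176-120659524, plus strand) encodes a core protein of complex III, and its exons overlap Pdzd9 on the opposite strand. It was 554, 662, 643 and 689 CPM in KO_TAC and 779.7, 884, 821 and 796 CPM in FF_TAC, with no overlap (log2 fold change −0.36, SE 0.09, adjusted p 0.0152, edgeR). KO_sham hearts, at 649 to 752 CPM, overlapped KO_TAC, and that difference was not called (adjusted p 0.173). Of the 91, 3 members were lower in every KO_TAC heart than in every KO_sham heart, namely Sdha, Ndufs1 and the complex I assembly factor Ndufaf4, where 12% of all genes did the same. Against FF_TAC these were 5 members (Sdha, Ndufs1, Uqcrc2, Ndufaf4 and Atp5a1), beside 6.76% of all genes, and no member lay higher in every heart, beside 6.76%. Ndufaf4 and Atp5a1 were not called (adjusted p 0.0774 and 0.0522 against FF_TAC).

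Markers of other cell types moved with the KO_TAC group. The summed level of 6 fibroblast markers was 1686 to 1762 CPM in KO_TAC, 872 to 1189.8 in KO_sham, 885 to 1006 in FF_TAC and 772 to 991 in FF_sham, so all 4 KO_TAC hearts lay above the other 12. Of the 6, 3 were higher in every KO_TAC heart than in every KO_sham heart, and 3 than in every FF_TAC heart. The sum of 6 pericyte markers was 554 to 886 CPM in KO_TAC, below KO_sham (939 to 1193) and FF_TAC (896 to 1134), with 2 and 3 of the 6 lower in every heart. The sum of 5 endothelial markers was 743 to 1189 CPM in KO_TAC, 1065 to 1242 in KO_sham and 996 to 1348 in FF_TAC, with 1 and 3 of 5 lower in every heart. The sum of 6 macrophage markers was 202 to 285 CPM in KO_TAC, 167 to 307 in KO_sham and 141 to 166 in FF_TAC, with 0 and 3 of 6 higher in every heart. Of these 23 markers none was at 0 throughout. The part of these cell types in the KO_TAC results for Sdha, Ndufs1, Uqcrc2 and the other members was not tested.

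The Sdha and Ndufs1 calls held in all 8 fits that each left out 1 library, in both comparisons. Sdha stayed between −0.56 and −0.46 against KO_sham. With a term for low haemoglobin, Sdha against KO_sham was −0.53 (adjusted p 0.0443, edgeR) and Ndufs1 −0.52 (adjusted p 0.0567). Against FF_TAC, a fit of the 2 groups alone called neither (adjusted p 0.0636 and 0.0824), nor did a fit of all 30 libraries (adjusted p 0.197 and 0.213). Without PBS_sham 3 in the latter, a setting chosen after seeing the data, Sdha and Ndufs1 against FF_TAC had adjusted p of 0.000568 and 0.000943. A fit of KO_TAC and KO_sham alone kept both calls (adjusted p 0.0250 and 0.0464).

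**Figure D1:**
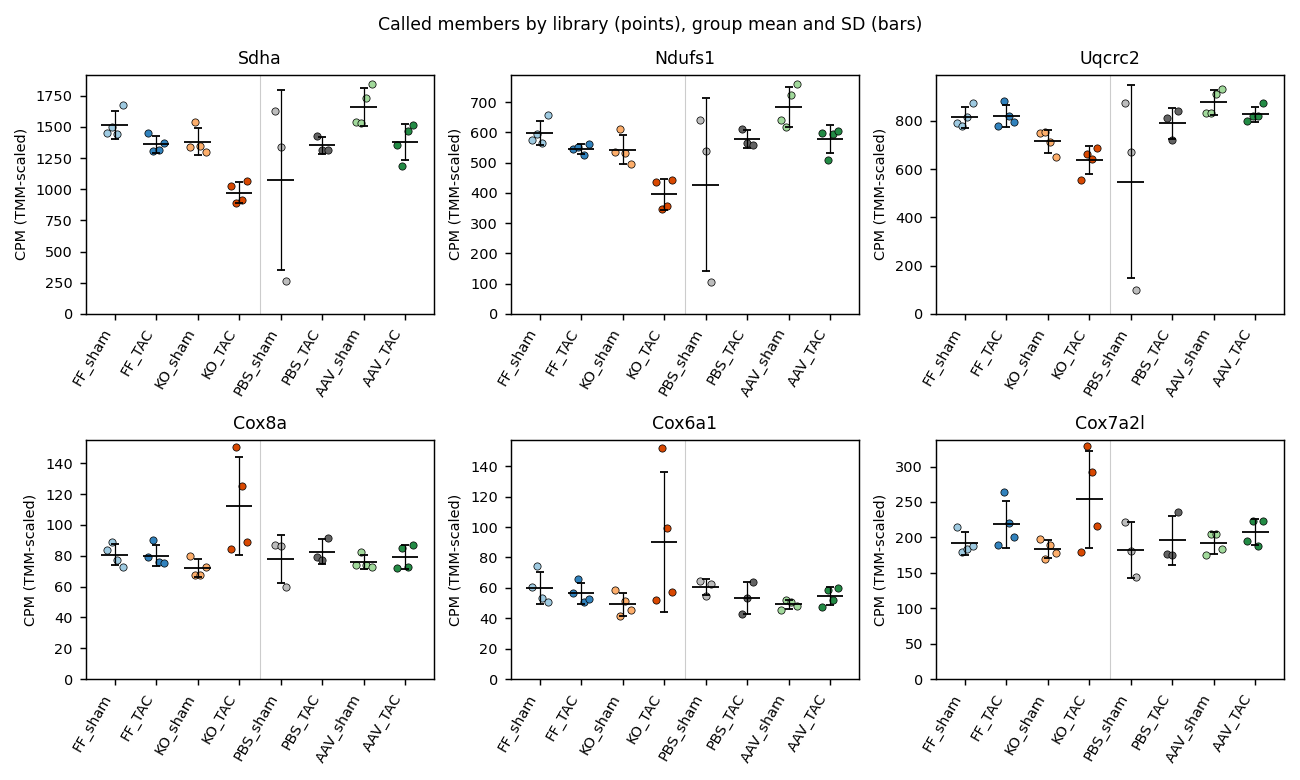
TMM-scaled CPM (y axis) of the 6 members called in a KO_TAC comparison, for each library (points) of the 8 groups (x axis), with the group mean and SD (bars). Sdha and Ndufs1 lie lower in all 4 KO_TAC hearts than in the other 12 floxed-cohort hearts, while Cox8a, Cox6a1 and Cox7a2l are highest in KO_TAC 2 and 3; PBS_sham 3 is far below its group in Sdha (262 CPM), Ndufs1 and Uqcrc2.

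The other 3 members of complex II were not called. Sdhb, the iron-sulfur subunit, was 504, 996, 799.7 and 648 CPM in KO_TAC and 749, 738, 753 and 659 CPM in KO_sham. The KO_TAC hearts spanned the KO_sham hearts on both sides (log2 fold change 0.02, SE 0.17, adjusted p 0.928, edgeR). The membrane anchors Sdhc and Sdhd gave −0.23 and 0.04 (adjusted p 0.104 and 0.872). The ratio of Sdha to Sdhb, each per kb, was 0.352 in KO_TAC 2 and 0.448 in KO_TAC 3, below every other floxed-cohort heart, and 0.803 in KO_TAC 1, inside the KO_sham range of 0.704 to 0.822. Subunits of 1 complex thus stood in different ratios among the overloaded knockout hearts. This pair was chosen after its values were seen.

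The 3 members that edgeR called higher against KO_sham were complex IV subunits or a factor described in supercomplexes of complexes III and IV. DESeq2 also called 4 of complex I higher, and limma-voom 17 of complex I, 4 of complex III and 4 of complex V. Cox8a (ENSMUSG00000035885; chr19:7215153-7217616, minus strand) encodes the form of subunit 8 found in most tissues. It was 84.2, 151, 126 and 88.8 CPM in KO_TAC, 80.0, 67.3, 67.6 and 72.6 CPM in KO_sham and 79.1, 90.2, 75.7 and 75.4 CPM in FF_TAC. KO_TAC lay above all KO_sham hearts, while KO_TAC 1 and 4 lay inside the FF_TAC range. Cox8a rose against KO_sham (log2 fold change 0.64, SE 0.16, adjusted p 0.0107, edgeR) and against FF_TAC (log2 fold change 0.49, SE 0.16, adjusted p 0.0487). Cox8a was the 1 member that lay higher in every KO_TAC heart than in every KO_sham heart, beside 11.1% of all genes.

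Cox6a1 (ENSMUSG00000041697; chr5:115345642-115348981, minus strand), the form of subunit 6A in non-muscle tissue, was 52.2, 152, 99.5 and 57.5 CPM in KO_TAC and 58.9, 41.5, 51.4 and 45.5 CPM in KO_sham (log2 fold change 0.87, SE 0.26, adjusted p 0.0276, edgeR). KO_TAC 2 and 3 stood above all other hearts of the cohort, and KO_TAC 1 and 4 did not. Cox7a2l (ENSMUSG00000024248; chr17:83501918-83517330, minus strand), the factor described in supercomplexes of complexes III and IV, was 179, 328, 292 and 216 CPM in KO_TAC and 198, 170.1, 189.6 and 178 CPM in KO_sham (log2 fold change 0.47, SE 0.16, adjusted p 0.0465). Whether its product acts so in these mice was not tested. Leaving out KO_TAC 2 gave 0.49 for Cox6a1 (adjusted p 0.108) and 0.31 for Cox7a2l (adjusted p 0.159), both no longer called. Cox8a kept its call against KO_sham in all 8 such fits, at 0.46 or more, and its call against FF_TAC in 3 of 8 (down to 0.31). With the haemoglobin term none of the 3 passed (adjusted p 0.121 to 0.350, edgeR). Against FF_TAC, Cox6a1 and Cox7a2l were not called (adjusted p 0.0983 and 0.383).

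Beyond the called genes, the overloaded knockout hearts differed widely among themselves. Within KO_TAC the median coefficient of variation of the 91 members was 36.4%, against 9.65% in KO_sham, 14.9% in FF_TAC and 10.7% in FF_sham. The spread of all genes is not given beside these values. KO_TAC 1 was the lowest of the 4 hearts in 87 of 91 members and KO_TAC 2 the highest in 85. That members were highest together in 1 heart was not particular to KO_TAC. The heart that was most often highest was so in 78 members in FF_sham, 85 in FF_TAC and 51 in KO_sham. The same count was 87 in PBS_sham, 88 in PBS_TAC, 63 in AAV_sham and 84 in AAV_TAC. The heart most often lowest was so in 51 to 73 members in these groups. The widest gap was in Ndufs6, an accessory subunit of complex I, whose highest KO_TAC heart held 3.90 times its lowest. On the log2 scale, the median member deviated from its cohort mean by −0.50 in KO_TAC 1, 0.70 in KO_TAC 2, 0.18 in KO_TAC 3 and −0.18 in KO_TAC 4. The same 2 extremes held the lowest and the highest cardiomyocyte marker sums of the cohort (49909.5 and 77474 CPM). The 8 markers of this sum did not move as one. Myh6 was 23102 CPM in KO_TAC 1 and 16115 in KO_TAC 2, and Ryr2 810 and 739, while the other markers were higher in KO_TAC 2. Of the 8, 2 were lower and 0 higher in every KO_TAC heart than in every KO_sham heart. KO_TAC 1 also held the atrial markers given above. The part of tissue makeup in this spread was not tested.

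By complex, the median change in KO_TAC against KO_sham was 0.28 for 44 members of complex I, −0.10 for the 4 of complex II, 0.28 for the 8 of complex III, 0.27 for 18 of complex IV and 0.19 for 17 of complex V. The median of all 91 was 0.25, with 75 above 0, while that of all genes was 0.02. Against FF_TAC the same medians were 0.04, −0.22, 0.05, 0.07 and 0.01, and 0.03 over all 91 (all genes 0.04). These medians rested on single hearts. Without KO_TAC 2 the median of the members was −0.04 against KO_sham and −0.24 against FF_TAC. Without KO_TAC 1 it was 0.40 and 0.18, and 31 members were then called against KO_sham, 28 higher and 3 lower, beside 40.8% of all genes (21% higher and 19.8% lower). Against FF_TAC 6 were called without it, beside 24.3%. Of the 28 that were higher against KO_sham, 14 were of complex I, 4 of complex III, 5 of complex IV and 5 of complex V, and the 3 lower ones were Sdha, Ndufs1 and Cox6b2. On library totals alone, without TMM, 3 members were called higher and 6 lower against KO_sham, beside 12.5% and 9.25% of all genes.

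Summed over the members of each complex, KO_TAC 1 to 4 held 7850.2, 17784, 12816 and 10095 CPM of complex I, against 9757 to 11427 in KO_sham. For complex IV they held 5518, 13182, 9167 and 6861 CPM, against 6622 to 7884. Both sums spanned the control range on either side. Complex II differed in this respect: its sum was 2205, 2891, 2575 and 2481 CPM in KO_TAC, and only KO_TAC 2 reached the KO_sham range of 2766 to 3138.

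**Figure D2:**
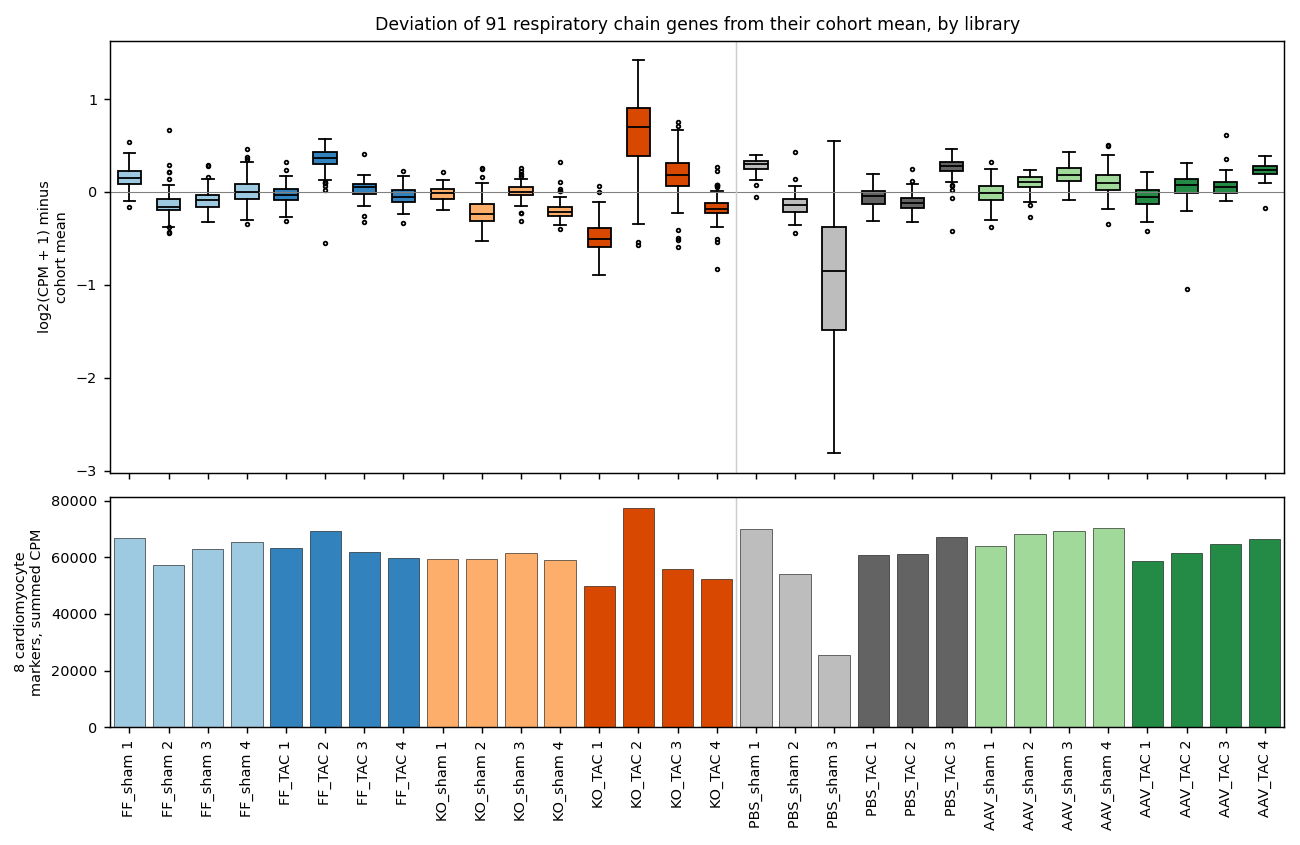
Upper panel: deviation of the 91 tested members from their cohort mean, as log2(CPM + 1), for each library (boxes show the quartiles, lines the median, whiskers the bulk of the rest and points the outlying genes). Lower panel: summed CPM of 8 cardiomyocyte markers in the same libraries; KO_TAC 1 (median −0.50), KO_TAC 2 (median 0.70) and PBS_sham 3 (median −0.85) have the medians farthest from 0. KO_TAC 1 and 2 also hold the lowest and highest marker sums of the floxed cohort, and PBS_sham 3 the lowest of all 30.

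Within complex I the core and the surrounding subunits had different medians. The 7 core subunits, which carry the flavin and the iron-sulfur clusters, had a median change of 0.10 against KO_sham and −0.16 against FF_TAC, with 5 and 1 of 7 above 0. The 29 supernumerary subunits, which surround the core, gave 0.30 and 0.09, with 28 and 23 of 29 above 0. The difference between these parts was not tested. Apart from Ndufs1 no core subunit was called in either comparison by edgeR, DESeq2 or limma-voom. Ndufv1, which binds NADH, was 578 to 1146 CPM in KO_TAC, 704 to 797 in KO_sham and 705 to 933 in FF_TAC, with changes of 0.11 and 0.05 in the order KO_sham, FF_TAC. KO_TAC spanned both control groups for Ndufv1. In the same order the changes were 0.10 and −0.08 for Ndufv2, 0.18 and −0.06 for Ndufs3, 0.10 and −0.19 for Ndufs7 and 0.00 and −0.16 for Ndufs8.

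Of the supernumerary subunits of complex I edgeR called none of 29 against KO_sham, with 4 at an unadjusted p under 0.05, as 40.6% of all genes had, while DESeq2 called 3 higher (Ndufa2, Ndufa11 and Ndufb3) and limma-voom 14 higher. The largest changes among them, picked after their values were seen, were those of Ndufa2 (log2 fold change 0.77, SE 0.31, adjusted p 0.0764) and Ndufa11 (log2 fold change 0.68, SE 0.26, adjusted p 0.0633). Ndufa2 was 121, 466, 261 and 169 CPM in KO_TAC and 157, 129, 172 and 136 CPM in KO_sham, so KO_TAC 2 and 3 were above the KO_sham hearts and KO_TAC 1 below them. Ndufs6 was 155, 606, 355 and 259.6 CPM in KO_TAC and 280.2, 225, 315 and 253 CPM in KO_sham. The 8 assembly factors, which build the complex and are not part of it, had medians of 0.19 and −0.05. Ndufaf4 was 46.7, 51.4, 49.7 and 53.4 CPM in KO_TAC, below all hearts of KO_sham (53.6 to 69.7) and FF_TAC (53.5 to 68.8), with an adjusted p of 0.0568 against KO_sham by edgeR, and DESeq2 called it lower. Ndufaf2, which acts late in assembly, gave 0.56 and 0.39 (adjusted p 0.0656 and 0.230).

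In complex III the core proteins and the small subunits lay apart too. Uqcrc1 was 822, 1328, 1160.4 and 1066 CPM in KO_TAC and 1332, 1572, 1358 and 1303 CPM in FF_TAC, a change of −0.35 that edgeR did not call (SE 0.13, adjusted p 0.0822) and DESeq2 did. Uqcrfs1, the Rieske iron-sulfur protein that passes electrons to cytochrome c1, gave 0.05 and −0.17 against KO_sham and FF_TAC. The small subunits Uqcr10, Uqcr11, Uqcrb, Uqcrh and Uqcrq gave 0.52, 0.42, 0.18, 0.39 and 0.38 against KO_sham. Both edgeR and DESeq2 called 0 of these 5, with 1 at an unadjusted p under 0.05 in edgeR (all genes 40.6%), and limma-voom called 4 higher, all but Uqcrb. Against FF_TAC they gave 0.26, 0.18, 0.01, 0.28 and 0.09. Uqcrh, the acidic hinge protein, was 356, 919, 569 and 409 CPM in KO_TAC and 389.8 to 469 in KO_sham. Its KO_TAC hearts reached from below the KO_sham range to above it.

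In the ATP synthase, edgeR called 0 of 17 members in either comparison, with 0 and 1 at an unadjusted p under 0.05, where 40.6% and 31.1% of all genes had one. DESeq2 called 0 against KO_sham and Atp5a1 lower against FF_TAC, and limma-voom called 4 higher against KO_sham and 0 against FF_TAC. The 5 subunits of the F1 head had medians of −0.05 against KO_sham and −0.11 against FF_TAC, and the 11 of the Fo part and stalks 0.24 and 0.11. Within F1 the catalytic and central subunits Atp5a1, Atp5b and Atp5c1 gave −0.15, −0.10 and −0.05 against KO_sham, and the small subunits Atp5d and Atp5e 0.41 and 0.51. Atp5a1 was 3026, 3723, 3552 and 3405 CPM in KO_TAC and 4104, 4367, 4059 and 3893 CPM in FF_TAC, lower in each heart (change −0.26, SE 0.09, edgeR adjusted p 0.0522). The most abundant member, Atp5b, was 4155, 4961, 4552 and 4289 CPM in KO_TAC, 4510.0 to 5213 in KO_sham and 4618 to 5449 in FF_TAC. The genes of subunit c, the rotor ring, are Atp5g1, Atp5g2 and Atp5g3, which encode the same mature protein. They gave 0.28 and −0.03, 0.10 and −0.07 and 0.10 and −0.08 against KO_sham and FF_TAC.

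The size of the change in KO_TAC went with transcript length, among members as among all genes. Of the 91 members, 34 have a principal transcript of up to 700 bases, 36 of up to 1500 and 21 a longer one. Their median changes against KO_sham were 0.33, 0.18 and −0.02 in that order, and those of all protein-coding genes 0.41, 0.28 and −0.03. Against FF_TAC the members gave 0.15, 0.02 and −0.16, and all protein-coding genes 0.28, 0.20 and 0.00. Across the 91 members Spearman's rho between change and length was −0.48 against KO_sham and −0.57 against FF_TAC. Over all 13458 protein-coding genes it was −0.25 and −0.20. Genes of 1 library share its RNA and are not replicates, so no test is given. Over the 8 fits that each left out 1 library, rho of the members stayed between −0.52 and −0.33 against KO_sham. The lengths are those of the annotated principal transcript, and some long ones have a short coding part. Examples are Atp5g1 (4715 bases, 408 of them coding), Ndufb2 (4371 and 315) and Uqcrq (1521 and 246).

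The called members lie at both ends of that order. The transcripts of Sdha (2900 bases), Ndufs1 (2661) and Uqcrc2 (1896), which fell, are among the 21 long ones. Those of Cox8a (550) and Cox6a1 (571), which rose, are among the 34 short ones, and Cox7a2l has 1076 bases. Length alone did not order the members: the short Cox7a1 (393 bases) gave −0.38 against FF_TAC (adjusted p 0.240, edgeR). Within single libraries the short members deviated from their cohort mean by 0.84 and the long ones by 0.35 in KO_TAC 2. All short genes gave 0.74 and all long genes −0.10 there, so the shift of short transcripts was not particular to the members. In KO_TAC 1 the members gave −0.49 and −0.43, and all genes −0.21 and 0.03. The gap between the classes of members thus did not appear in every overloaded knockout heart, and that of all genes was reversed in KO_TAC 1. The part of RNA quality in this pattern was not tested. All samples had an RNA integrity number above 7 per the labels.

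**Figure D3:**
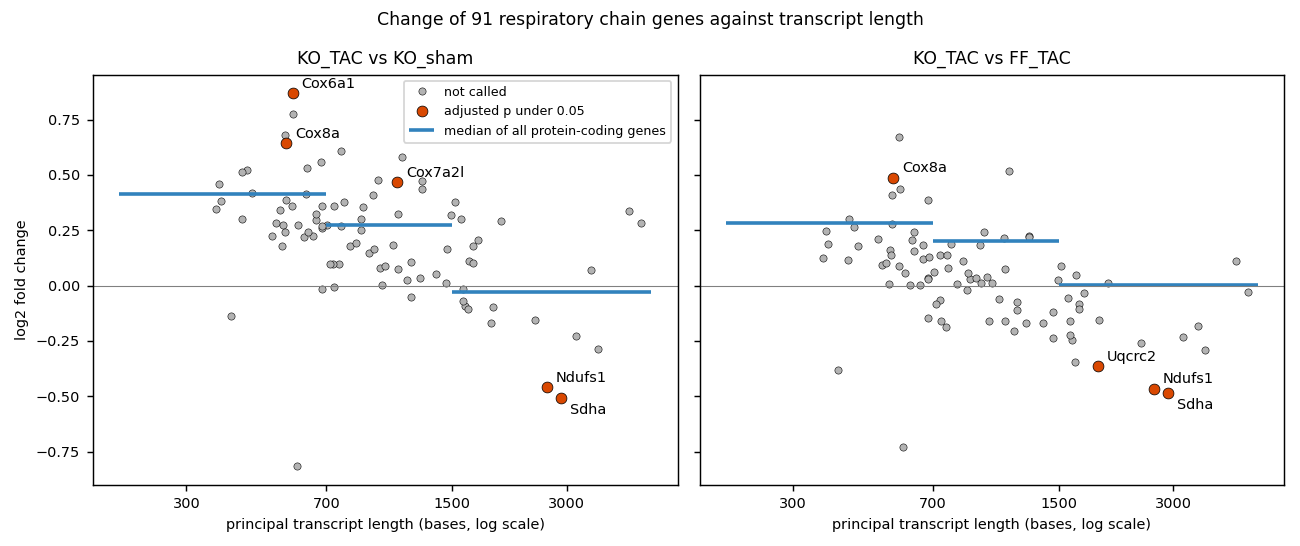
Log2 fold change (y axis) of the 91 tested members against the length of their principal transcript (x axis, log scale) in KO_TAC against KO_sham (left) and KO_TAC against FF_TAC (right), 1 point per gene, with called members filled in orange. Blue bars give the median of all protein-coding genes of up to 700, up to 1500 and more bases; the called falls lie among the long transcripts and the called rises of Cox8a and Cox6a1 among the short ones.

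Complex IV subunits 6A, 7A and 8 each have a muscle form and a form of other tissues, and in 2 of the 3 pairs the latter had a larger share in every KO_TAC heart than in any KO_sham or FF_TAC heart. Cox7a2 made up 31.7% ± 3.09 of Cox7a1 and Cox7a2 together in KO_TAC hearts, against 22.1% ± 1.51 in FF_sham, 23.7% ± 0.783 in FF_TAC and 25.2% ± 1.83 in KO_sham, counted per kb (SD, n = 4 each). The KO_TAC range of 29.9 to 36.3% lay above every other floxed-cohort heart, the highest of which had 26.5%. Cox6a1 made up 9.46% ± 1.03 of its pair with Cox6a2 in KO_TAC, 6.64% ± 0.997 in KO_sham and 6.45% ± 0.398 in FF_TAC. The KO_TAC hearts (8.22 to 10.4%) lay above those of KO_sham (5.56 to 7.95%) and FF_TAC (5.88 to 6.78%), and overlapped FF_sham (5.76 to 9.96%). For subunit 8, Cox8a made up 18.0% ± 4.12 in KO_TAC and 14.1% ± 1.90 in KO_sham, with KO_TAC 2 (13.3%) inside the KO_sham range of 11.2 to 15.1%. The fibroblast and pericyte marker sums given above moved with the KO_TAC group too, and their part in these shares was not tested. The shares were computed after earlier results of these data were known and carry no test of their own.

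The genes of the Cox7a pair, taken singly, were not called. Cox7a1 was 248, 566, 306 and 279 CPM in KO_TAC and 395, 359, 456 and 327 CPM in KO_sham. Cox7a2 was 182, 407, 292 and 200.1 CPM in KO_TAC and 238.4, 213, 222 and 189.9 CPM in KO_sham. Both ranges overlapped between the groups (adjusted p 0.659 and 0.237, edgeR). Both forms were highest in KO_TAC 2 and lowest in KO_TAC 1 of the 4 hearts. The muscle forms Cox6a2 and Cox8b were not called either (0.27 and 0.35 on the log2 scale). Cox4i2, a form induced in lung and by low oxygen, was at most 0.717% of the Cox4 pair in all 16 floxed-cohort hearts. Ndufa4l2, a relative of the complex IV subunit Ndufa4 known to respond to low oxygen and overlapped by Shmt2 on the opposite strand, was 9.46 to 26.4 CPM in KO_TAC and 13.7 to 16.3 in KO_sham, and Ndufa4 was 537 to 1186 and 630.0 to 728.

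**Figure D4:**
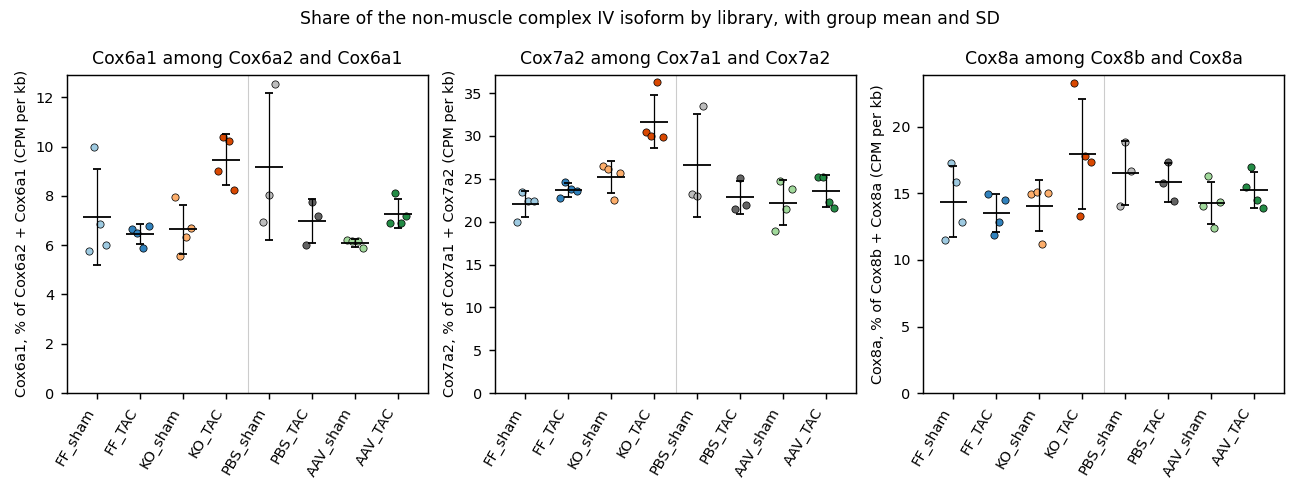
Share of the form of other tissues in each pair of complex IV isoforms (y axis, percent of both forms by CPM per kb) for each library (points) of the 8 groups (x axis), with the group mean and SD. The 4 KO_TAC hearts lie above the rest of the floxed cohort for Cox7a2 (29.9 to 36.3%), and PBS_sham 3 is the highest of the AAV9 cohort for Cox7a2 and Cox6a1.

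The upstream sequences of these isoforms are shown because the pairs fill the same position in the enzyme from separate genes. They come from RefSeq (GRCm38.p6), which gave a window of 250 bases before to 50 after the start for 71 of the 94 members, and each line is up to 200 bases before the start, shortened where an annotated exon reaches in. Capitals mark matches to the motifs searched, on either strand: NRF1 (GCGC, any base, then TGCGC), the ETS family that holds GABP (CCGGAAG), ERR (TCAAGGTCA), YY1 (AAGATGGCG), Sp1 (GGGCGG), MEF2 (TAAAAATA) and an E-box (CAGCTG).
Cox6a1, chr5:115348982-115349129, minus strand: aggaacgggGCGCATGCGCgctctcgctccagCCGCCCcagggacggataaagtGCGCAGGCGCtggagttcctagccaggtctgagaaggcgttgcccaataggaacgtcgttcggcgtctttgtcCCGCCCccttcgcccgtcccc
Cox7a2, chr9:79759879-79760078, minus strand: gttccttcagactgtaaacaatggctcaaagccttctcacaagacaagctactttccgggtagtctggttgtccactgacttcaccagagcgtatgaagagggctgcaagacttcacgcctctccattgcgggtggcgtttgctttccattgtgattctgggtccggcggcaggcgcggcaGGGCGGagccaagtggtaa
Cox7a1, chr7:30183944-30184143, plus strand: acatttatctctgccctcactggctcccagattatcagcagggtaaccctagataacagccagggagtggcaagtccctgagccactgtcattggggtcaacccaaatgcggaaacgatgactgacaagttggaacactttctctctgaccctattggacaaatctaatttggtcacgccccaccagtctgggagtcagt
Cox8a, chr19:7217617-7217816, minus strand: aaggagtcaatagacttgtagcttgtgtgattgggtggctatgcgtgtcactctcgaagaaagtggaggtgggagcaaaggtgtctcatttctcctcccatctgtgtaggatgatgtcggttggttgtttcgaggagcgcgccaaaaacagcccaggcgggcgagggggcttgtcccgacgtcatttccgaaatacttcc
Cox8b, chr7:140900447-140900646, minus strand: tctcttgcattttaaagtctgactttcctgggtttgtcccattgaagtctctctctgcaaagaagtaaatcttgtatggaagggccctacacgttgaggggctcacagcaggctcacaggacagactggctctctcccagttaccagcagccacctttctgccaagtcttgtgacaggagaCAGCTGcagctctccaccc
The stretch of Cox6a1 holds 2 NRF1 matches and 2 Sp1 matches, that of Cox7a2 1 Sp1 match, and that of the muscle form Cox8b 1 E-box match. The printed stretches of Cox7a1 and Cox8a hold none of these letters. The window of Cox8a holds 2 ETS matches that the stretch does not take in whole, 1 across its end and 1 after the start. Outside their printed stretches, the window of Cox6a1 holds 1 ETS match before the start and that of Cox8b 1 more E-box match after it.

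Over the 71 member windows, the NRF1 motif was in 17 (23.9%), against 10.2% of 10175 windows of protein-coding genes tested. The ETS motif was in 23.9% of member windows and 17.8% of all, YY1 in 8.45% and 3.15%, and the ERR motif in 2 member windows (2.82%) and 0.256% of all. Sp1 was in 45.1% and 64.8%, the E-box in 7.04% and 15.1%, and MEF2 in 0 member windows and 1.06% of all. NRF1, GABP and the ERR proteins are known activators of respiratory chain genes. A match is a run of letters and not a bound site.

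Among the partner subunits that are encoded in mitochondrial DNA, 7 of 13 genes fell in overloaded knockout hearts. That count held both against KO_sham and against FF_TAC, where 11.5% and 6.8% of all genes fell (edgeR). Against KO_sham 12 of the 13 were below 0. The genes with the largest falls against KO_sham were mt-Atp8, a small subunit of complex V whose gene overlaps mt-Atp6 on the same strand (log2 fold change −1.74, SE 0.55, adjusted p 0.0316), mt-Nd5 of complex I (log2 fold change −0.82, SE 0.19, adjusted p 0.00852) and mt-Co1, the catalytic subunit of complex IV (log2 fold change −0.79, SE 0.17, adjusted p 0.00638). The level of mt-Atp8 was low, at 7.14, 9.01, 3.89 and 11.6 CPM in KO_TAC and 28.5, 47.0, 18.7 and 11.4 CPM in KO_sham, and its groups overlapped. mt-Co1 was 51066, 31789.6, 36969 and 64567 CPM in KO_TAC and 71622 to 85881 in KO_sham. All KO_TAC hearts lay below all KO_sham hearts. The median of the 13 was −0.63 against KO_sham and −0.62 against FF_TAC. Poly(A) selection was used, and how well it captures mitochondrial transcripts was not tested.

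As shares of all counts, these 13 transcripts made up 14.7, 10.8, 11.2 and 17.5% in KO_TAC 1 to 4, against 19.5 to 24.0% in the other 12 floxed-cohort hearts. The 94 nuclear genes made up 3.56, 5.55, 4.56 and 3.77%, against 3.99 to 4.82%. KO_TAC 2 had the lowest mitochondrial and the highest nuclear share of all 30 hearts. The ratio of nuclear to mitochondrially encoded counts was 0.514 in KO_TAC 2 and 0.407 in KO_TAC 3, against 0.182 to 0.248 in the other floxed groups. KO_TAC 1 (0.242) and KO_TAC 4 (0.215) lay inside that range. The 13 genes differed widely in level. In FF_sham mt-Co1 held 75656 to 99752 CPM, against 423 to 692 of mt-Co2, 237 to 444 of mt-Co3 and 163 to 433 of mt-Atp6. The summed shares and ratios thus rest mostly on the abundant genes of the 13. How completely reads were counted for each mitochondrial gene was not tested.

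**Figure D5:**
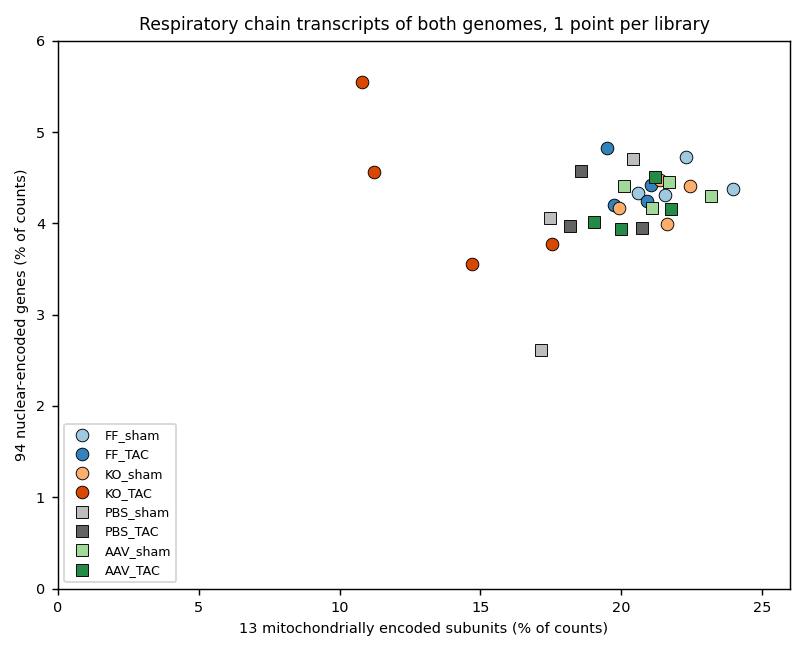
Share of counts from the 94 nuclear-encoded genes (y axis, percent) against the share from the 13 mitochondrially encoded subunits (x axis, percent), 1 point per library, circles for the floxed and squares for the AAV9 cohort. The KO_TAC hearts lie to the left, at 10.8 to 17.5% mitochondrially encoded, and PBS_sham 3 lies lowest at 2.61% nuclear-encoded.

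Genes around the chain gave mixed calls in KO_TAC. Of 45 further assembly factors tested, 2 rose and 4 fell against KO_sham, and 8 fell against FF_TAC. Against KO_sham 14.3% of all genes were called higher and 11.5% lower, and against FF_TAC 7.53% higher and 6.8% lower. Those that rose were Uqcc3, an assembly factor of complex III (1.04, adjusted p 0.0314, edgeR), and Cox19, an assembly factor of complex IV (0.85, adjusted p 0.0193). The largest falls against FF_TAC were those of Taco1, which activates translation of mt-Co1 (−0.69, adjusted p 0.0106), Atpaf1 of the ATP synthase (−0.55, adjusted p 0.0146) and Cox15, which makes heme A (−0.51, adjusted p 0.0183). Against KO_sham, Tmem186 (−0.49), Atpaf1 (−0.44) and Cox15 (−0.40) led the falls (adjusted p 0.0108 to 0.0358). The median of the 45 was 0.12 and −0.10.

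Among 15 genes of cytochrome c, Cyc1 and coenzyme Q synthesis, 3 fell against FF_TAC, where 6.8% of all genes were called lower. They were Pdss2, which makes the side chain of coenzyme Q (−0.62, adjusted p 0.000713, edgeR), Coq9 (−0.53, adjusted p 0.00423) and Coq8a (−0.42, adjusted p 0.00843). Against KO_sham, Pdss2 fell (−0.37, adjusted p 0.00735) and Coq8b rose (0.80, adjusted p 0.00282), 1 of 15 in each direction. Pdss2 was 18.3, 17.9, 18.6 and 21.1 CPM in KO_TAC and 28.5 to 29.9 in FF_TAC, with no overlap. Of 11 regulators, 1 rose and 2 fell against KO_sham, and 3 fell against FF_TAC. The same percentages of all genes apply, 14.3 and 11.5% against KO_sham and 6.8% lower against FF_TAC. Esrrg, which encodes the estrogen-related receptor gamma, fell in both (−0.57 and −0.59, adjusted p 0.00780 and 0.00795), as did Gabpa, the DNA-binding part of GABP (−0.50 and −0.43, adjusted p 0.0150 and 0.0409). Gabpb1, its partner, rose against KO_sham (0.70, adjusted p 0.0208), and Polrmt, the mitochondrial RNA polymerase, fell against FF_TAC (−0.44, adjusted p 0.0207). Atpif1 was not called (0.95 and 0.91, adjusted p 0.0514 and 0.0862).

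Overload of floxed controls gave no called member. In FF_TAC against FF_sham edgeR called 0 of 91 members, beside 0% of all genes. 0 members had an unadjusted p under 0.05, as 11.1% of all genes did, and DESeq2 and voom called 0 as well. The median change was 0.11 (all genes −0.01), with 76 of 91 members above 0, and it was 0.01 without FF_TAC 2 and 0.16 without FF_sham 1. FF_TAC 2 was the highest of its group in 85 of 91 members. The smallest p belonged to Ndufb3, an accessory subunit of complex I, which was 231, 353, 269 and 263 CPM in FF_TAC and 221, 183, 224 and 187 CPM in FF_sham (log2 fold change 0.45, SE 0.24, adjusted p 0.488). Its groups did not overlap, beside 2.74% of all genes that were higher without overlap. Sdha came second (−0.16, adjusted p 0.531), with overlapping hearts.

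The knockout without overload gave 0 called members of 91 against FF_sham, beside 0% of all genes, by edgeR, DESeq2 and voom alike. The median change was −0.09 (all genes 0.00), and 83 of 91 members were below 0. Leaving out 1 library moved the median from −0.14 (without KO_sham 3) to −0.03 (without FF_sham 1). Uqcrc1, the other core protein of complex III, was the 1 member with an unadjusted p under 0.05, as 5.22% of all genes had. It was 1153, 1209, 1237 and 1108 CPM in KO_sham and 1546, 1261, 1375 and 1582 CPM in FF_sham, without overlap (log2 fold change −0.29, SE 0.13, adjusted p 0.944). Uqcrc2 was lower without overlap too, beside 3.55% of all genes (log2 fold change −0.19, SE 0.09, adjusted p 0.963). The test of whether the TAC effect differs between knockout and floxed hearts called 0 of 91 members, beside 0.0449% of all genes, with 4 at an unadjusted p under 0.05, beside 13.1% of all genes. DESeq2 called 0, and voom called 5 beside 18.8% of all genes. Cox8a (log2 fold change 0.65, SE 0.22, adjusted p 0.218) and Sdha (log2 fold change −0.35, SE 0.13, adjusted p 0.267) had the smallest p. A difference between knockout and floxed hearts in the response of single members to TAC was therefore not shown by edgeR.

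In the AAV9 cohort 1 sham heart set the pattern of the members. In PBS_sham 3 they made up 2.61% of counts, against 4.71 and 4.06% in the other PBS_sham hearts, and 66 of 91 members were lower there than in any of the other 29 hearts. The median member stood at 53.2% of the mean of the other 2, and 43 were under 50%. Uqcrc2 was the lowest, with 99.8 CPM or 12.9% of that mean, followed by Sdha (17.6%), Ndufs1 (17.6%) and the anchor subunit Sdhd (19.6%). At the other end 10 members were above 100%, among them Cox6a1, Cox4i2 (135%) and Atp5e, a small F1 subunit (122%). The share of all genes is not given for these counts of members, so they have no background beside them. The TMM factor of this library (1.39) was the highest of the 30 and lowers all its CPM. These factors were set within each cohort, while the 29 hearts span both. The median of all tested genes deviated from its cohort mean by 0.01 in PBS_sham 3 (log2). The long members deviated from their cohort mean by −1.58 and the short ones by −0.65 in this heart, while all long genes gave 0.04 and all short genes −0.13. Cox7a2 made up 33.5% and Cox6a1 12.6% of their pairs, the highest of the cohort. The cardiomyocyte marker sum was the lowest of the 30 hearts and the smooth muscle sum the highest, and their part in these values was not tested.

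None of the 5 comparisons of this cohort called a member by edgeR, DESeq2 or voom. The background was 0.0318% of all genes in PBS_TAC against PBS_sham, 0.0127% in AAV_sham against PBS_sham, 0.00635% in AAV_TAC against AAV_sham, 0.0381% in AAV_TAC against PBS_TAC and 0.00635% in the interaction. The count at an unadjusted p under 0.05 was 1 of 91 in AAV_sham against PBS_sham, beside 20.7% of all genes. It was 0 in the other 4, beside 18.5% in PBS_TAC against PBS_sham, 7.05% in AAV_TAC against AAV_sham, 3.19% in AAV_TAC against PBS_TAC and 6.95% in the interaction. In PBS_TAC against PBS_sham the median change of the members was 0.22 (all genes −0.02), and without PBS_sham 3 it was −0.06. In AAV_sham against PBS_sham it was 0.28 (all genes −0.03), and 0.01 without that heart. Without PBS_sham 1 the medians were 0.57 and 0.60, and edgeR called 2 members in the former and 9 in the latter. PBS_sham 3 stays in these fits. The share of all genes called in them is not given here, so these counts have no background beside them. In AAV_TAC against AAV_sham the median was −0.03, in AAV_TAC against PBS_TAC 0.03 and in the interaction −0.25. The AAV_TAC against AAV_sham median ran from −0.0808 without AAV_TAC 4 to 0.0245 without AAV_TAC 1, and that against PBS_TAC from −0.0340 without PBS_TAC 2 to 0.171 without PBS_TAC 3. The interaction median ran from −0.55 without PBS_sham 1 to 0.01 without PBS_sham 3. On library totals the median of all genes was −0.21 in PBS_TAC against PBS_sham, −0.27 in AAV_sham against PBS_sham and 0.21 in the interaction.

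The members with the smallest p in this cohort were not called. In AAV_sham against PBS_sham, Cox6a1 was 45.5 to 52.2 CPM and 54.8 to 64.2 CPM, lower without overlap yet short of the threshold (log2 fold change −0.30, SE 0.13, adjusted p 0.228, edgeR), where 5.32% of all genes were lower without overlap. The complex I assembly factor Ndufaf3 gave 0.40 (adjusted p 0.248). In PBS_TAC against PBS_sham, Ndufb3 and Ndufaf7, a methyltransferase needed for complex I assembly, gave 0.43 and 0.42 (adjusted p 0.297 and 0.326). In AAV_TAC against AAV_sham the 2 genes tied to low oxygen led, Ndufa4l2 at 16.1 to 19.1 against 12.5 to 17.5 CPM (adjusted p 0.793) and Cox4i2 at 8.90 to 11.4 against 7.33 to 10.4 CPM (adjusted p 0.8004), both with overlapping hearts. In AAV_TAC against PBS_TAC these were Ndufaf4 and the accessory subunit Ndufa12 (adjusted p 0.99997 for both), and in the interaction Cox6a1 and Ndufaf7 (adjusted p 0.692 and 0.6999). Sdha was 1189.6 to 1518 CPM in AAV_TAC, 1312 to 1431 in PBS_TAC and 1532 to 1841 in AAV_sham, with every AAV_TAC heart below every AAV_sham heart (log2 fold change −0.27, SE 0.37, adjusted p 0.982). That pattern, lower without overlap, held for 2 of 91 members and 5.79% of all genes. The SE and p of Sdha use a spread estimated over all libraries of the cohort, as do the other edgeR tests here. PBS_sham 3, with 262 CPM of Sdha, is among these libraries. The SE is thus not the spread of the AAV_TAC and AAV_sham hearts alone.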

How the data were processed

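RNA from 30 mouse hearts was sequenced as poly(A) selected, directional, paired-end libraries per the labels. The authors deposited raw counts per gene, made with HISAT2 2.1.0 and featureCounts of Subread 1.5.1 on GRCm38, per the submitters' processing notes. The annotation release, the strand setting and the handling of reads that map to several places are not given in the sources used here, and many members have pseudogene copies. Symbols, biotypes, coordinates and principal transcript lengths were taken from GENCODE M21 (GRCm38).

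Each cohort was fitted alone in edgeR 4.0.16 (R 4.3.3) with a mean per group, filterByExpr (15596 genes in the floxed and 15745 in the AAV9 cohort), TMM scaling and the quasi-likelihood test. All 10 comparisons were adjusted over all genes by the Benjamini-Hochberg method, and called means an adjusted p under 0.05. Library deviations were taken on log2(CPM + 1). The scripts were tested on simulated data. Alternatives were DESeq2 1.42.0, voom in limma 3.58.1 with sample weights, other scalings and filters, other libraries in the fit, haemoglobin and atrial terms, the replicate block and leaving out each library. Named genes were the 3 markers, the isoform pairs, Cox7a2l, the called members (up to 5 in each direction), the 2 members with the smallest p where none was called, and up to 3 called genes of each other list and direction. The values of 1 member are not reported here. Others are named as examples chosen after their values were seen. The members and the lists were chosen with earlier results of these data known. Nothing says whether the libraries of a group come from separate litters or days, so p-values measure only the spread between these samples. No pair of libraries within a group agreed within sampling noise.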

Additional observations from a re-analysis of the deposited data

Results flagged for a closer look

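In 11 of 204 sets of 4 libraries, 1 library lay farther from its neighbours than Dixon's 95% limit, and chance alone marks about 1 in 20 such sets. No explanation was tested. FF_TAC 2 was high in 2 members: it held 295 CPM of Cox7a2 (the next heart 223) and 992 CPM of Ndufa4 (next 742). In KO_TAC 3, Cox7a2 made up 36.3% of its pair with Cox7a1, against 30.5% in the next KO_TAC heart. In KO_sham 3, Cox8a made up 11.2% of its pair, against 14.97% in the next. All members together took 4.73% of the counts of FF_sham 1, against 4.37% in the next FF_sham heart.

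In the AAV9 cohort, AAV_sham 1 held 1429 CPM of Cox4i1, below the next value of 1712. AAV_sham 2 held 82.5 CPM of Cox8a (next 74.1) and AAV_sham 3 28.6 CPM of Ndufaf3 (next 25.1). In AAV_sham 4, Cox6a1 made up 5.87% of its pair, against 6.16% in the next heart. AAV_TAC 2 held 508 CPM of Ndufs1, below the next value of 595, and AAV_TAC 3 held 16.1 CPM of Ndufa4l2, below the next value of 18.7. PBS_sham and PBS_TAC have 3 libraries each and were not examined in this way.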

How the results depend on the processing

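The hearts' number limits the precision: 4 or 3 libraries a group, at 14839758 to 22070373 counts, and edgeR's calls moved with the libraries in the fit. The number of members called in KO_TAC against KO_sham, 5 as reported, was 10 with DESeq2, 35 with limma-voom and sample weights, 9 on library totals, 2 when only both groups were fitted and 1 with a term for low haemoglobin. It ranged from 3 to 31 when 1 library was left out, with 31 without KO_TAC 1 and 3 without KO_sham 3, KO_sham 4 or KO_TAC 3. In KO_TAC against FF_TAC, 4 as reported, it was 7 with DESeq2, 10 with limma-voom, 2 with no filter on low counts and 2 with all 30 libraries in 1 fit. It was 0 when only both groups were fitted and 0 among the libraries with haemoglobin under 100 CPM, and ranged from 3 to 6 when 1 library was left out. A fit of all libraries but PBS_sham 3, chosen after seeing the data, called 11 and 8. The test of the difference in TAC effect gave 5 with limma-voom. Leaving out 1 library gave 0 to 9 in AAV_sham against PBS_sham and 0 to 2 in PBS_TAC against PBS_sham, both upper values without PBS_sham 1. In the other 6 comparisons no setting run moved the count of 0, apart from that limma-voom value. Shares of all genes are given above only for the reported fits, DESeq2, limma-voom, library totals and the fits without KO_TAC 1. The other counts have no background beside them. The causes of these shifts were not tested.

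Deviations of same-numbered libraries correlated at −0.40 to 0.43 (median 0.035) over 24 pairs of the floxed cohort. In the AAV9 cohort they gave −0.49 to 0.41 (median 0.0089) over 19 pairs. Differently numbered libraries gave −0.50 to 0.51 (median 0.012, 72 pairs) and −0.48 to 0.60 (median 0.017, 54 pairs). Above 0.1 were 10 of 24 and 7 of 19 same-numbered pairs, and 21 of 72 and 19 of 54 others. The labels do not say that the numbers pair animals, so they were not treated as pairs. With the replicate number as a block, 4 and 3 members were called in the KO_TAC comparisons. Cox7a2l against KO_sham (0.44, adjusted p 0.0661) and Cox8a against FF_TAC (0.47, adjusted p 0.0549) were no longer called, and small changes against FF_TAC turned sign in Cox6a2 (−0.00151), Ndufa4 (−0.0167) and Ndufa4l2 (−0.0180).

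Other turns of sign were in genes that edgeR did not call. Cox4i2 against KO_sham was −0.00524 as reported, 0.00463 with DESeq2, 0.0215 with limma-voom and 0.00476 with RLE size factors. Against FF_TAC, Ndufa4 was −0.00616 and Ndufa4l2 −0.00142 with mitochondrial transcripts left out, and with the haemoglobin term Cox6a2 was −0.0328 and Ndufa4 −0.0536. When 1 library was left out, the changes against FF_TAC ran from −0.16 to 0.24 for Cox4i1, from −0.50 to 0.0314 for Cox4i2, from −0.28 to 0.18 for Cox6a2, from −0.0836 to 0.32 for Cox7a2, from −0.29 to 0.34 for Cox8b, from −0.26 to 0.14 for Ndufa4, from −0.30 to 0.19 for Ndufa4l2. Against KO_sham they ran from −0.35 to 0.19 for Cox4i2, from −0.0361 to 0.43 for Cox6a2, from −0.0667 to 0.56 for Cox8b, from −0.0494 to 0.35 for Ndufa4, from −0.14 to 0.35 for Ndufa4l2. Of the values of single genes under another setting, 356 kept direction and side of the threshold, 35 lost a call, 12 gained one and 22 turned sign.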
